A study of Mus musculus with 14 samples.

Results

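The mitochondrial ribosomal protein genes were taken as every gene whose symbol begins with Mrpl or Mrps, then has a number and at most 1 further letter. The rule found 77 genes of 24394 in the table, 48 Mrpl genes named for the large subunit and 29 Mrps genes named for the small subunit. RNA had been sequenced from microglia, the resident macrophages of the brain, of C57BL/6 mice aged 18 months. An osmotic pump had delivered either control IgG or a blocking antibody to CD22, a sialic acid receptor that inhibits immune cells, into the cerebrospinal fluid for 1 month. Each group had 7 libraries, so the controls carry the same age, pump and infusion as the treated group and no uninfused animal is part of the comparison. About 20000 live CD11b+CD45lo cells per sample were sorted from the hemisphere on the side away from the cannula. In such bulk RNA, fewer cells of a type and less RNA per cell cannot be told apart. The labels number the libraries 1 to 7 in each group without saying that each came from its own mouse, and p-values here rest only on how far these libraries spread, which may in part be technical.

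Mitochondria carry their own ribosome, which translates the few messages of mitochondrial DNA into membrane subunits of the respiratory chain. Its RNAs are mitochondrial, but all of its proteins are encoded in the nucleus, made in the cytosol and imported. Some of these proteins have a counterpart in the bacterial ribosome, and others are found in mitochondria alone. The large subunit joins amino acids and holds the exit tunnel, and the small subunit decodes the message.

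All 77 genes had a mean of at least 10 normalized counts, the level needed to enter the test, so no member was lost to the filter. Transcript levels per kilobase, taken as normalized counts divided by the length of the longest coding transcript, spanned 24.8-fold. Mrpl42 stood highest at 1270 normalized counts per kilobase, followed by Mrps15 at 1203, Mrpl43 at 1082 and Mrps18b at 1052. Mrps25 was the lowest at 51.3 and Mrpl47 was the lowest of the large subunit at 101. The longest annotated transcript of Mrps25 has 6073 bases and shares 69.8% of the exon bases of the gene with Nr2c2 on the opposite strand, so this order depends on the transcript chosen.

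Promoters of the members are shown here because the proteins of one particle must be supplied by many separate nuclear genes, and regulators such as NRF1 and the ETS factor GABP are textbook activators of such genes. RefSeq promoters of 300 bases, from 250 before to 50 after the start on GRCm38.p6, were matched by symbol for 68 of the 77 genes, and where several were listed (3 genes) the first was used. The 4 printed below are cut to the bases outside every annotated exon. Capitals mark the ETS motif CCGGAAG and the NRF1 motifs GCGCATGC and TGCGCA, searched on both strands, which can overlap. The whole Mrps12 promoter also holds the ETS motif and the YY1 motif AAGATGGC, but neither lies whole within the bases printed. Mrpl12 (chr11:120484437-120484612, plus strand) had the smallest p of all members, Mrps22 (chr9:98601680-98601879, minus strand) was the member furthest above 0, Mrps12 (chr7:28741822-28741991, minus strand) shares its whole printed interval with the divergent gene Sars2, and Mrpl22 (chr11:58171464-58171660, plus strand) is an example, picked for its sequence, that holds an ETS motif and both NRF1 motifs.
Mrpl12: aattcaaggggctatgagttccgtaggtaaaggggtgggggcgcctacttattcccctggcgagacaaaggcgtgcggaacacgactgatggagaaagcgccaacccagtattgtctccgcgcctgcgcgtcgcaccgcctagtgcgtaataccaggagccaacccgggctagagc
Mrps22: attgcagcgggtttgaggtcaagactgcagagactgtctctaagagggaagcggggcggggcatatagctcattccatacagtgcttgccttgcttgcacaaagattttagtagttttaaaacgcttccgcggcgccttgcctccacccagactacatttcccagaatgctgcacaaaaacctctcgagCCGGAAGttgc
Mrps12: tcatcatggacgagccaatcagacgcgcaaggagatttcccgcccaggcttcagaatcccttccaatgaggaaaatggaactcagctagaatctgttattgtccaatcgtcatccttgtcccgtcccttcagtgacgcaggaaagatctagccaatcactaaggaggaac
Mrpl22: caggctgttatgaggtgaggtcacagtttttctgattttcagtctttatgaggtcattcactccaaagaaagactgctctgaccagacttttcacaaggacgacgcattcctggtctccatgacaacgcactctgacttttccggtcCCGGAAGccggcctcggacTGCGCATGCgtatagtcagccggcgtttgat

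The ETS motif was found in 31.0% of 42 large subunit promoters and 42.3% of 26 small subunit promoters, beside 19.6% of the 8961 promoters of tested genes and 9.12% of all 27025 promoters. The short NRF1 motif TGCGCA was found in 26.2% of the large and 34.6% of the small subunit promoters, beside 15.3% of those of tested genes. The longer form GCGCATGC was in 16.7% and 3.85%, beside 5.87%, and the YY1 motif AAGATGGC in 14.3% and 23.1%, beside 5.12%. The ZNF143 motif ACTACAA was in 11.9% of the large subunit promoters and in 0 of the 26 small subunit promoters, beside 4.69%. The TATA box TATAAA was in 4.76% and 7.69%, close to the 6.75% of tested genes. Members with the ETS motif had a median log2 fold change of -0.13 over 24 genes and those without it -0.11 over 44. With and without TGCGCA both medians were -0.11. With GCGCATGC the median was -0.15 over 8 genes, and without it -0.11 over 60. With the YY1, ZNF143 and TATA motifs the medians were -0.10, -0.10 and -0.12, over 12, 5 and 4 genes. Without them they were -0.11, -0.11 and -0.10. These differences were not tested. A match of letters is a description of the sequence and was not tested as a binding site.

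Whether a month of CD22 blockade altered these genes was asked with limma on log2(normalized count + 1), fitted over all 11646 genes with enough signal, with Benjamini-Hochberg adjustment over all of them. None of the 77 members passed an adjusted p of 0.05, where 1 gene of 11646 did (0.00859%). DESeq2 and edgeR, run on the reads of 13 libraries without anti-CD22 replicate 3, called 0 members as well. DESeq2 called 40 of the 8747 tested genes to which it gave an adjusted p (0.457%). At an unadjusted p under 0.05, DESeq2 counted 9 members and edgeR 7, beside 10.6% and 8.82% of all tested genes. Both of these member counts thus lay near the background. Limma counted 12 members at that level, 11 lower with anti-CD22 and 1 higher. Over all tested genes limma had 5.95% lower and 6.8% higher.

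Most members of both subunits were lower with anti-CD22 by a small amount. In the large subunit 40 of 48 genes had a log2 fold change below 0, with a median of -0.11 and a range from -0.35 to 0.21. In the small subunit it was 22 of 29, with a median of -0.11 and a range from -0.36 to 0.38. Over all tested genes 49.8% were below 0 and the median was 0.00. The standard error of a member ran from 0.0705 to 0.201 on the log2 scale, so a difference the size of either median lay within about 2 standard errors for any 1 gene.

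At an unadjusted p under 0.05, 8 large subunit genes were lower and 0 higher, and 3 small subunit genes were lower and 1 higher. The background over all tested genes was 5.95% lower and 6.8% higher. Among tested genes with transcripts of 1963 bases or less it was 12.1% lower and 1.1% higher, and most members are of that length. For no member did the 7 anti-CD22 libraries lie wholly apart from the 7 IgG libraries, against 0.12% of all genes fully lower and 0.137% fully higher.

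**Figure D1:**
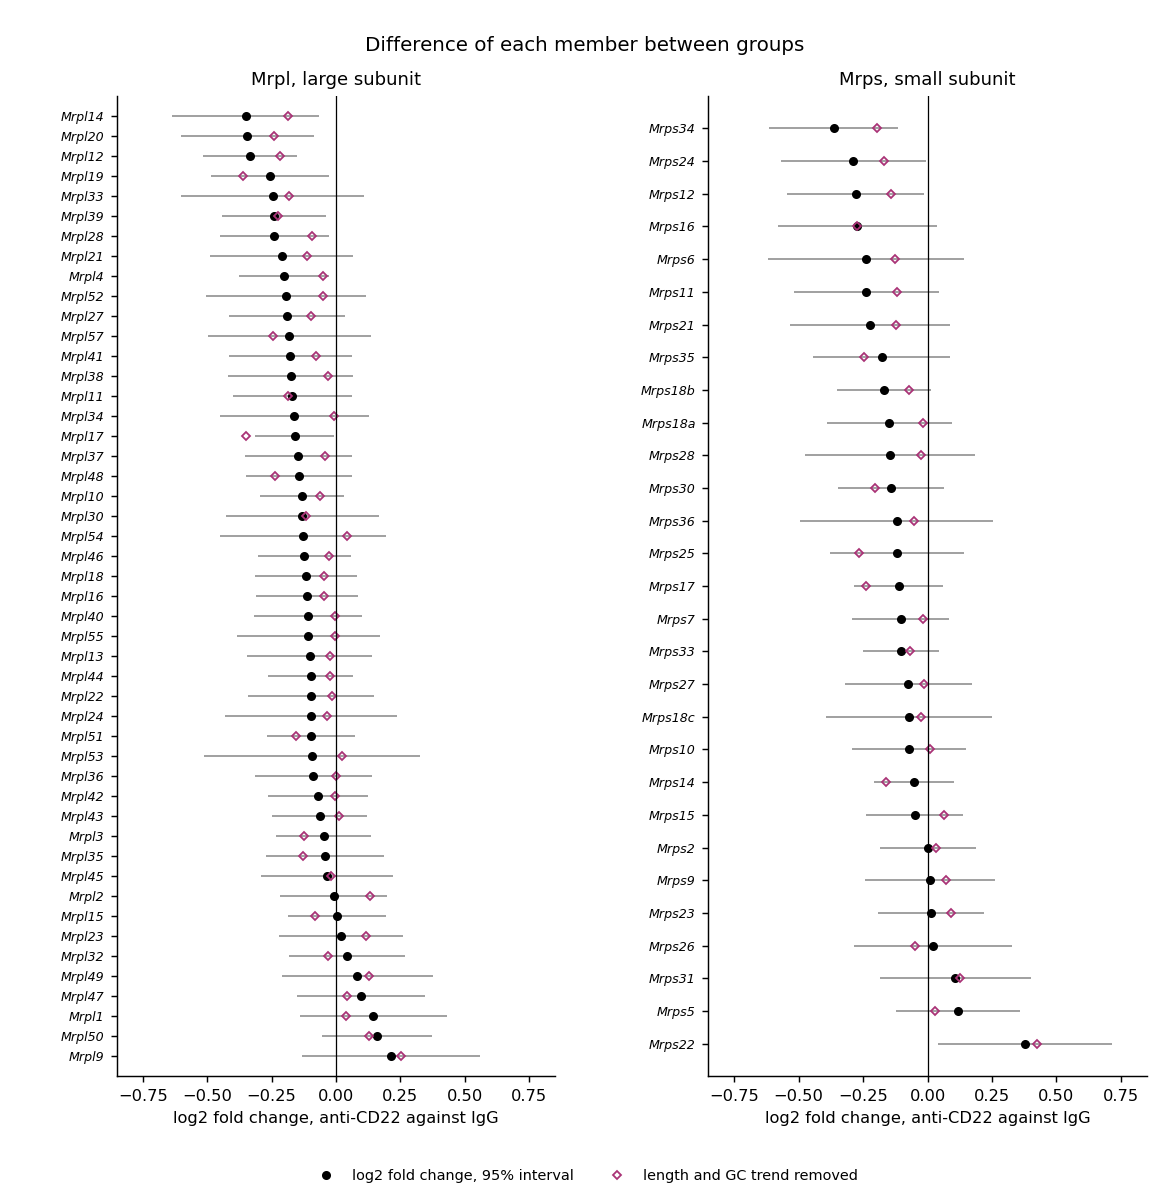
Log2 fold change of anti-CD22 against IgG (horizontal axis) for each Mrpl gene (left) and Mrps gene (right), with the 95% interval of the limma fit as a line (n = 7 libraries per group). Open diamonds give the value after the trend with transcript length and GC content was removed in each library: 40 of 48 and 22 of 29 filled points lie left of 0, and the diamonds mostly lie nearer to 0.

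The relation of level to transcript length differed on average between the groups, though not in every library. It is given here because most members have short transcripts, and its part in their values was not tested. The members' median transcript length was 1316 bases against 3060 for all tested genes, and 53 of 77 members (68.8%) belonged to the 2896 tested genes with transcripts of 1963 bases or less. Of those short genes, 72.2% were below 0, at a median of -0.09 on the log2 scale. Of the members, 80.5% were below 0.

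With the trend of level on transcript length and GC content removed in each library (length and GC correction), the median was -0.04 for the large and -0.05 for the small subunit, beside -0.01 for all genes and -0.01 for the short genes. Counts below 0 were then 38 of 48 and 21 of 29, beside 53.2% of all genes and 53.9% of the short genes. At an unadjusted p under 0.05 there were 5 large subunit genes and 1 small subunit gene lower, beside 4.68% of all genes and 2.49% of the short genes, and 1 small subunit gene higher, beside 4.01% of all genes. Among those lower, Mrpl17, Mrpl19, Mrpl39 and Mrps17 had annotated transcripts of 7300, 5000, 2294 and 5061 bases. They are thus not part of the short genes, and the 2.49% is no background for them. The part of the length trend in what remained was not tested.

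**Figure D2:**
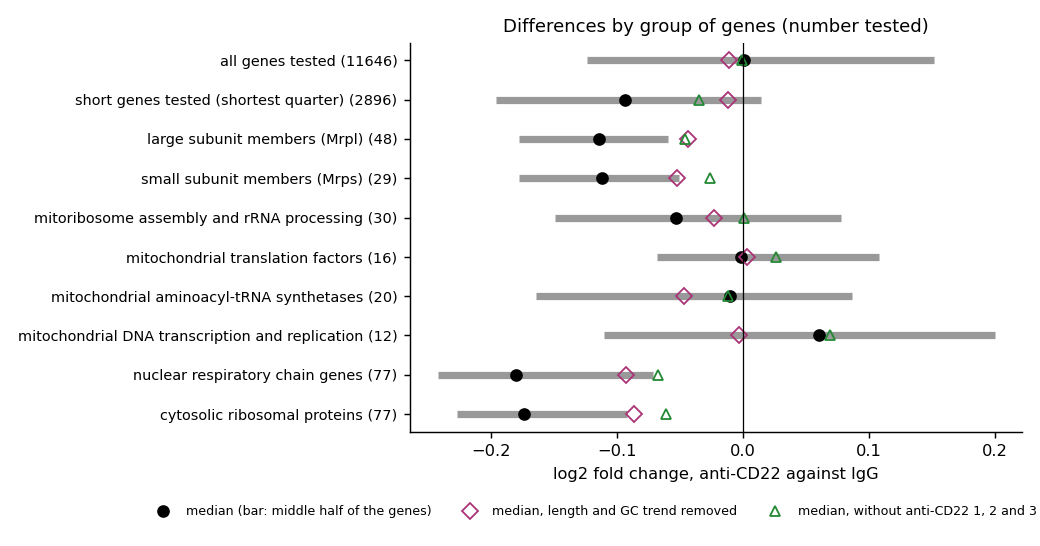
Median log2 fold change (filled point) and interquartile range of the genes (bar) for each group of genes, with the median after removal of the length and GC trend (diamond) and without anti-CD22 replicates 1, 2 and 3 (triangle). Both subunits have a median of -0.11, the tested genes of 1963 bases or less -0.09, and all genes 0.00.

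The difference was carried unevenly by the anti-CD22 libraries. The mean of the log2 levels over the large subunit genes, each gene centred on its mean over all 14 libraries, was 0.055 ± 0.043 in the IgG group and -0.055 ± 0.110 in the anti-CD22 group (SD, n = 7 each). For the small subunit it was 0.050 ± 0.053 and -0.050 ± 0.120. The spread was thus wider with anti-CD22 in both subunits, and 5 of the 7 treated libraries were under the IgG median.

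Anti-CD22 replicates 1, 2 and 3 had the lowest large subunit means, at -0.147, -0.202 and -0.119, all under the lowest IgG library at -0.013. Replicates 4 and 5, at -0.032 and -0.051, also lay under it. Replicates 6 and 7, at 0.089 and 0.077, lay among the IgG libraries, of which replicate 6 was highest at 0.112. In replicate 1, 8 of 48 large subunit genes were above their own mean over all libraries, and in replicate 6 it was 37 of 48.

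The 2 subunits moved together from library to library. The large subunit mean minus the small subunit mean stayed between -0.044 and 0.055 in the 14 libraries, a narrower span than that of either mean. After length and GC correction, anti-CD22 minus IgG was -0.063 for the large and -0.061 for the small subunit means, against -0.110 and -0.100 before.

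**Figure D3:**
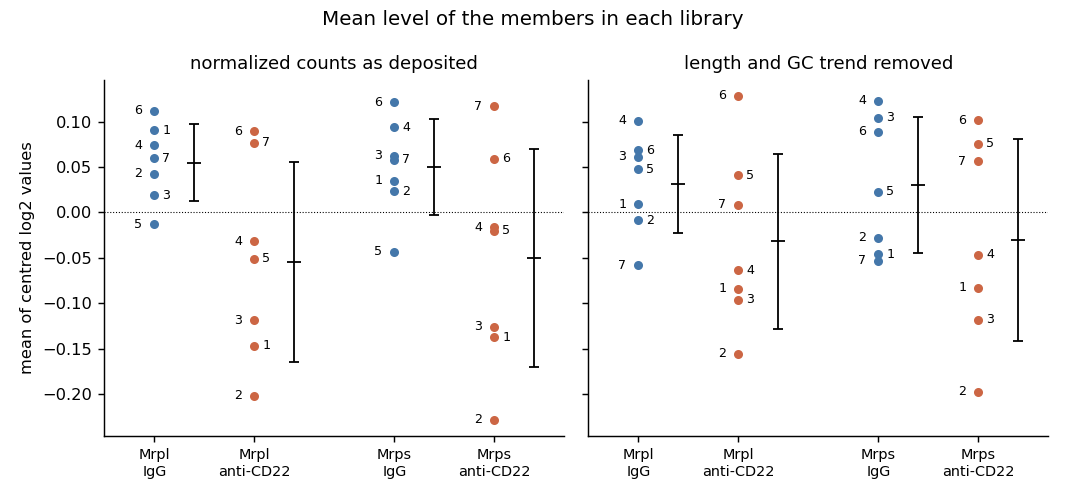
Mean of the centred log2 levels over the 48 Mrpl or 29 Mrps genes in each library (points, numbered by replicate), with the group mean and SD as a bar, before (left) and after (right) removal of the length and GC trend. Before removal, anti-CD22 replicates 1, 2 and 3 lie under every IgG library in both subunits, and replicates 6 and 7 lie among them.

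The same 3 libraries had the steepest length trend. The Spearman rho over all tested genes between transcript length and the level in a library relative to the other libraries was 0.329, 0.302 and 0.339 in anti-CD22 replicates 1, 2 and 3. It was 0.148 and 0.136 in replicates 4 and 5, -0.047 and -0.283 in replicates 6 and 7, and between -0.270 and -0.002 in the IgG libraries. These 3 libraries also stood apart by GC content, with a rho of level with GC content of -0.332, -0.420 and -0.382, against -0.013 to 0.254 in the other anti-CD22 libraries and 0.012 to 0.290 in the IgG libraries. Without these 3 libraries, 31 of 48 large subunit genes were below 0 with a median of -0.05, and 18 of 29 small subunit genes with a median of -0.03. Over all tested genes 50.1% were then below 0, and of the short genes 61.0% with a median of -0.03. The members' counts and medians thus lay near those of short genes. The 3 libraries left out also had the lowest member means, so a move of the members' medians towards 0 was given in advance. Fewer anti-CD22 than IgG libraries remained in this comparison. At an unadjusted p under 0.05, 2 large subunit genes were then lower, beside 2.51% of all genes, and 1 small subunit gene higher, beside 2.48%.

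**Figure D4:**
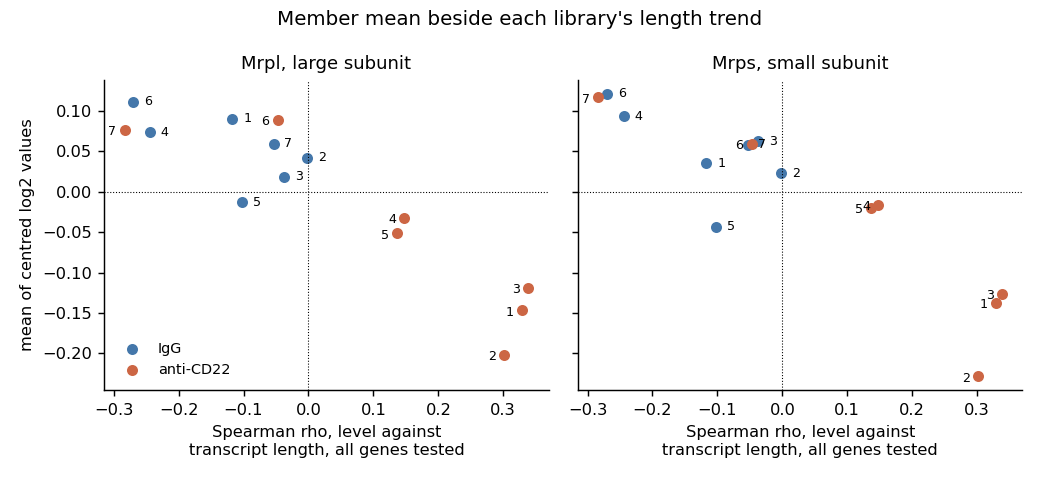
Mean centred log2 level of the Mrpl genes (left) and Mrps genes (right) in each library against that library's Spearman rho of level with transcript length over all tested genes. Anti-CD22 replicates 1, 2 and 3, at rho 0.302 to 0.339, have the lowest member means. The points share their reads with both axes and are shown as a description.

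The stalk of the large subunit, which recruits the translation factors, held the member with the smallest p. Mrpl12 (chromosome 11: 120484613 to 120489065, GRCm38) encodes the stalk protein itself, which is also known to bind the mitochondrial RNA polymerase. It ranged from 822 over a median of 965 to 1073 normalized counts with IgG, and from 695 over 773 to 850 with anti-CD22. All 7 treated libraries were under the IgG median, and the groups met only where IgG replicates 1 and 2, at 847 and 822, fell under the highest anti-CD22 library. The means were 964 ± 99.0 and 763 ± 54.4 (SD, n = 7 each), a log2 fold change of -0.33 (SE 0.09, 95% interval -0.52 to -0.15, limma adjusted p = 0.195).

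After removal of the trend with length and GC content, Mrpl12 differed by -0.22, and without anti-CD22 replicates 1, 2 and 3 it was -0.26. The adjusted p over the alternatives ran from 0.0572 to 0.897, the lowest with DESeq2. A 13.1% share of its exon bases overlaps Gm16755 on the opposite strand, and the kit does not mark strand. Mrpl10, the protein on which the stalk stands, averaged 1513 ± 136 with IgG and 1380 ± 122 with anti-CD22 (log2 fold change -0.13, SE 0.08, adjusted p = 0.482).

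Among the other large subunit proteins with a bacterial counterpart, Mrpl20 (chromosome 4: 155802878 to 155809975), a protein that binds the ribosomal RNA, ranged from 571 over 599 to 741 normalized counts with IgG and from 376 over 516 to 599 with anti-CD22. Its low values were in anti-CD22 replicates 1 and 2, at 392 and 376, and replicates 4, 6 and 7 lay within the IgG range. The log2 fold change of -0.34 (SE 0.12, adjusted p = 0.289) became -0.24 after length and GC correction and -0.14 without anti-CD22 replicates 1, 2 and 3.

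Mrpl14 (chromosome 17: 45686322 to 45698495), which lies at the face that meets the small subunit, ranged from 213 over 298 to 311 with IgG and from 195 over 214 to 293 with anti-CD22. In 6 of 7 anti-CD22 libraries it was at 224 or less, and in 6 of 7 IgG libraries at 270 or more, with 1 library of each group on the other side. The log2 fold change was -0.35 (SE 0.14, adjusted p = 0.315). It was -0.19 after length and GC correction and -0.30 without anti-CD22 replicates 1, 2 and 3.

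Mrpl39 (chromosome 16: 84717576 to 84735742), a protein particular to mitochondrial ribosomes, ranged from 565 over 670 to 729 with IgG and from 501 over 546 to 671 with anti-CD22. Anti-CD22 replicates 3 and 7, at 671 and 650, stood above the other 5 libraries of their group, which were at 556 or less. IgG replicate 7 was the lowest IgG library. The log2 fold change of -0.24 (SE 0.10, adjusted p = 0.327) was -0.23 after length and GC correction and -0.27 without anti-CD22 replicates 1, 2 and 3, so for this gene neither step reduced it by much.

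The other 4 large subunit genes at an unadjusted p under 0.05, named after their values were seen, were Mrpl19 (-0.26), Mrpl28 (-0.24), Mrpl4 (-0.20) and Mrpl17 (-0.16), with adjusted p between 0.345 and 0.374. After length and GC correction they stood at -0.36, -0.09, -0.05 and -0.35, so Mrpl19 and Mrpl17 moved away from 0 and Mrpl28 and Mrpl4 towards it. Their longest annotated coding transcripts have 5000, 1068, 1288 and 7300 bases in that order, and the corrected values depend on the transcript chosen. Mrpl19 shares 36.0% of its exon bases with Gcfc2 on the opposite strand.

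**Figure D5:**
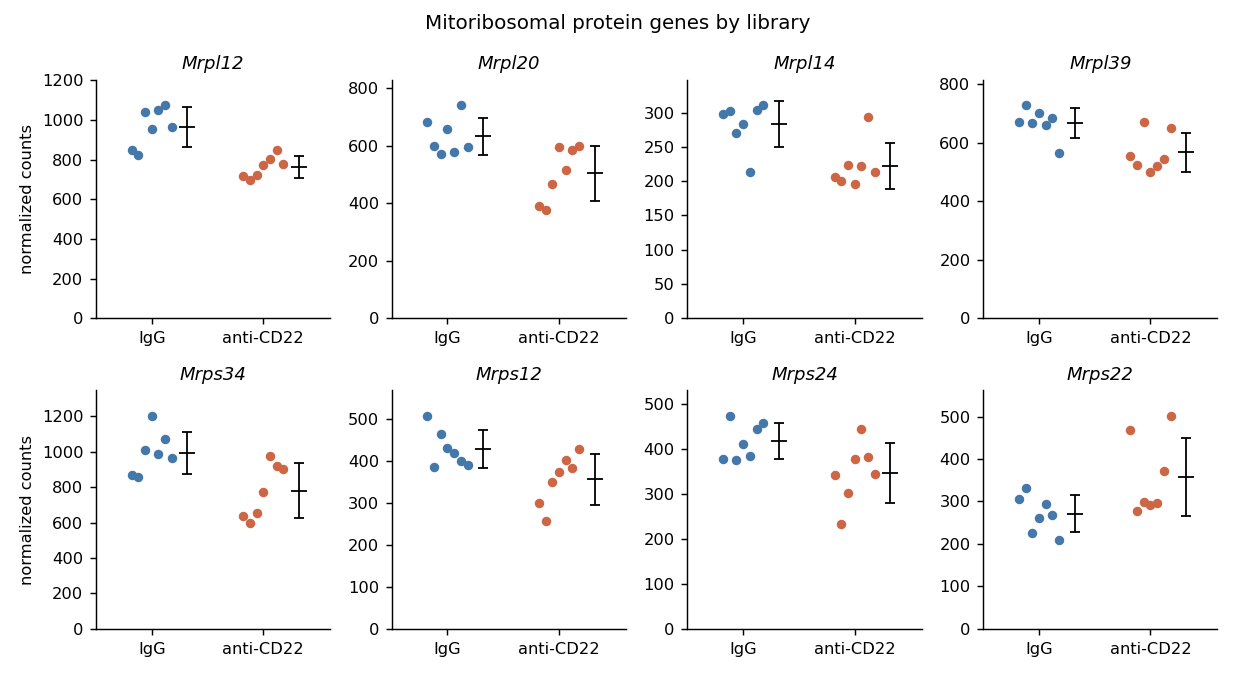
Normalized counts of 8 members in each of the 14 libraries (points, replicates 1 to 7 from left to right in each group), with the group mean and SD as a bar. The anti-CD22 points of Mrpl12 lie between 695 and 850 and those of IgG between 822 and 1073, and Mrps22 is the member drawn that is higher with anti-CD22.

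At the exit tunnel, Mrpl45, which tethers the ribosome to the inner membrane, did not differ beyond its spread, with 747 ± 188 normalized counts with IgG and 713 ± 44.9 with anti-CD22 (log2 fold change -0.04, SE 0.12, adjusted p = 0.925). IgG replicate 1 stood at 1134 and the other IgG libraries between 606 and 809. Without that library the log2 fold change was 0.07, and all 7 treated libraries were over the IgG median of 652.

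Mrpl44, a protein with a ribonuclease fold that binds the ribosomal RNA, was at 1167 ± 86.4 and 1090 ± 96.6 (log2 fold change -0.10, SE 0.08, adjusted p = 0.608). Mrpl32, which must be cut by the m-AAA protease before it can join the ribosome, was at 417 ± 33.8 and 431 ± 52.0 (0.04, SE 0.11, adjusted p = 0.899). Neither difference exceeded the spread between libraries.

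The most abundant large subunit transcripts per kilobase had differences smaller than their standard errors. Mrpl42 was at 865 ± 68.1 normalized counts with IgG and 828 ± 112 with anti-CD22 (log2 fold change -0.07, SE 0.09, adjusted p = 0.780). Mrpl43 was at 1544 ± 146 and 1482 ± 189 (-0.06, SE 0.09, adjusted p = 0.791). Both turned to above 0 without anti-CD22 replicates 1, 2 and 3, at 0.01 and 0.07, and Mrpl43 shares 33.4% of its exon bases with the helicase gene Twnk on the opposite strand.

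Of the 8 large subunit genes above 0, those with the smallest p were Mrpl50 and Mrpl9. Mrpl50, a mitochondria-specific protein, was at 881 ± 119 with IgG and 983 ± 135 with anti-CD22 (0.16, SE 0.10, adjusted p = 0.522), above the IgG median in 6 of 7 anti-CD22 libraries. Mrpl9 was at 550 ± 149 and 625 ± 113 (0.21, SE 0.16, adjusted p = 0.598), above it in 5 of 7. Mrpl47, the least abundant large subunit member per kilobase, was at 329 ± 54.3 and 348 ± 16.7 (0.10, SE 0.12, adjusted p = 0.759).

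In the small subunit, Mrps34 (chromosome 17: 24895116 to 24897502), a mitochondria-specific protein that stabilises the subunit, had the smallest p. It ranged from 856 over 989 to 1202 normalized counts with IgG and from 596 over 774 to 978 with anti-CD22. Anti-CD22 replicates 1, 2, 3 and 4, at 640, 596, 656 and 774, lay under every IgG library, and replicates 5, 6 and 7, at 978, 922 and 900, lay inside the IgG range. The log2 fold change was -0.36 (SE 0.12, adjusted p = 0.254), becoming -0.20 after length and GC correction and -0.15 without anti-CD22 replicates 1, 2 and 3. Most of its exon bases are shared with other genes, 63.4% with Mapk8ip3 on the opposite strand and 37.0% with Nme3 on the same strand, so its count is uncertain.

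Mrps22 (chromosome 9: 98588730 to 98601660), also mitochondria-specific, was the member that went furthest in the other direction. It ranged from 210 over 268 to 331 normalized counts with IgG and from 277 over 299 to 501 with anti-CD22. Every treated library was over the IgG median, and replicates 1 and 7, at 469 and 501, with replicate 6 at 371, stood above the highest IgG library, while the other 4 lay between 277 and 299. The means were 271 ± 43.4 and 358 ± 92.1 (SD, n = 7 each), and the log2 fold change was 0.38 (SE 0.16, 95% interval 0.04 to 0.72, adjusted p = 0.349). After removal of the trend with length and GC content it was 0.42, and it was 0.41 without anti-CD22 replicates 1, 2 and 3.

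Mrps12 (chromosome 7: 28739641 to 28741820), a protein of the decoding centre, ranged from 384 over 419 to 506 with IgG and from 255 over 372 to 427 with anti-CD22. Anti-CD22 replicates 1, 2, 3, 4 and 6 were under every IgG library, the last by a small margin, and replicate 7 was above the IgG median. The log2 fold change of -0.28 (SE 0.13, adjusted p = 0.376) became -0.14 after length and GC correction and -0.10 without anti-CD22 replicates 1, 2 and 3. Its divergent neighbour Sars2, the mitochondrial seryl-tRNA synthetase whose start bounds the promoter interval printed above, was at 312 ± 52.6 and 238 ± 61.8 (-0.41, SE 0.17, adjusted p = 0.349).

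Mrps24, a protein near the entry of the message, ranged from 376 over 410 to 473 with IgG and from 232 over 344 to 444 with anti-CD22. Its lowest libraries were anti-CD22 replicates 2 and 3, at 232 and 303, while replicate 5 at 444 lay inside the IgG range. The log2 fold change was -0.29 (SE 0.13, adjusted p = 0.383), becoming -0.17 after length and GC correction and -0.11 without anti-CD22 replicates 1, 2 and 3. It shares 15.4% of its exon bases with Urgcp on the same strand.

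Mrps5, the second of the higher small subunit genes by p and a bacterial counterpart protein, was at 364 ± 48.6 with IgG and 393 ± 30.5 with anti-CD22 (log2 fold change 0.12, SE 0.11, adjusted p = 0.687). Mrps15, the most abundant small subunit transcript per kilobase, was at 1144 ± 85.6 and 1110 ± 145 (-0.05, SE 0.09, adjusted p = 0.842). Its value was above 0 after length and GC correction, at 0.06. Mrps25, the least abundant per kilobase, was at 323 ± 25.2 and 300 ± 44.9 (-0.12, SE 0.12, adjusted p = 0.710).

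The 3 Mrps18 paralogues are related proteins that sit at different places in the ribosome, and they differed in level. Mrps18b had 1205 ± 162 normalized counts with IgG and 1066 ± 63.7 with anti-CD22 (log2 fold change -0.17, SE 0.09, adjusted p = 0.423), and all 7 anti-CD22 libraries were below the IgG median. Mrps18a, which structures place in the large subunit, had 739 ± 112 and 665 ± 86.0 (-0.15, SE 0.12, adjusted p = 0.602), also with 7 of 7 below. Mrps18c had 368 ± 70.6 and 353 ± 83.6 (-0.07, SE 0.15, adjusted p = 0.874), with IgG replicate 7 and anti-CD22 replicate 7 both high at 514 and 512, and stood at 0.01 without the former. After length and GC correction the 3 values were -0.07, -0.02 and -0.03. Per kilobase these genes stood at 1052, 794 and 440. Mrps18b shares 30.5% of its exon bases with Gm16279 on the opposite strand.

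Some of the symbols do not match the place of the protein. Mrps30, like Mrps18a, is a large subunit protein in structures, and had 1609 ± 154 normalized counts with IgG and 1467 ± 213 with anti-CD22 (log2 fold change -0.14, SE 0.10, adjusted p = 0.548). Mrps36 is known as a component of the 2-oxoglutarate dehydrogenase complex and not of the ribosome, and had 175 ± 32.4 and 163 ± 43.7 (-0.12, SE 0.18, adjusted p = 0.807). Counted by structure instead of symbol, the large subunit had 42 of 50 genes below 0 with a median of -0.12, and the small subunit 19 of 26 with a median of -0.10.

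Members with a bacterial counterpart and members particular to mitochondria were set apart in each subunit. In the large subunit these were -0.11 over 30 genes (24 below 0) and -0.12 over 18 genes (16 below 0). In the small subunit they were -0.11 over 16 genes (13 below 0) and -0.11 over 12 genes (8 below 0). After length and GC correction the medians were -0.06 and -0.03 in the large subunit and -0.07 and -0.06 in the small. Without anti-CD22 replicates 1, 2 and 3 they were -0.05 and -0.04, and -0.01 and -0.04. The difference between the classes was not tested.

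The libraries of a group differed less in these genes than in the typical gene. The median coefficient of variation over the 7 libraries was 11.4% with IgG and 13.2% with anti-CD22 for the large subunit, and 11.1% and 14.5% for the small subunit, against 16.6% and 17.2% over all tested genes. Their median level was 569 normalized counts, against 591 over all genes tested.

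Proteins of the same ribosome that carry other names were described next, from a list of 8 symbols of which 6 were in the table. Of these, 5 were below 0, at a median difference of -0.09, none at an unadjusted p under 0.05. After length and GC correction 5 remained below 0, at a median of -0.06. Without anti-CD22 replicates 1, 2 and 3 the direction turned, with 2 below 0, 4 above and a median of 0.04. Chchd1, a small subunit protein, was at 226 ± 47.1 with IgG and 180 ± 51.1 with anti-CD22 (-0.35, SE 0.19, adjusted p = 0.450), and Aurkaip1, also of the small subunit, at 982 ± 50.8 and 887 ± 129 (-0.16, SE 0.09, adjusted p = 0.484).

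Before length and GC correction, the factors that build and serve the ribosome were split evenly around 0, and none passed limma's adjusted threshold. Of 30 tested assembly and ribosomal RNA processing genes, 16 were below 0 (median -0.05), with 2 lower and 1 higher at an unadjusted p under 0.05. The shares over all tested genes were 5.95% lower and 6.8% higher. After length and GC correction 17 of the 30 were below 0 (median -0.02), beside 53.2% of all genes. Mpv17l2, which takes part in assembly, was at 811 ± 78.8 and 679 ± 103 (-0.26, SE 0.11, adjusted p = 0.324). Spg7, a subunit of the m-AAA protease that processes Mrpl32, was at 1791 ± 213 and 1540 ± 193 (-0.22, SE 0.09, adjusted p = 0.350).

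Of 16 translation factors, 8 were below 0 (median -0.002), with 0 lower and 1 higher at an unadjusted p under 0.05. Over all tested genes 5.95% were lower and 6.8% higher at that level. After length and GC correction 7 of the 16 were below 0 (median 0.003). The release factor gene Mtrf1l was at 213 ± 34.2 and 281 ± 31.0 (0.41, SE 0.14, adjusted p = 0.284), above the IgG median in all 7 anti-CD22 libraries. The initiation factor gene Mtif3 was at 709 ± 74.6 and 631 ± 55.6 (-0.17, SE 0.09, adjusted p = 0.463). Of 20 mitochondrial aminoacyl-tRNA synthetase genes, 10 were below 0 (median -0.01). At an unadjusted p under 0.05, 3 were lower and 0 higher, beside the same 5.95% and 6.8%. After length and GC correction 13 of the 20 were below 0 (median -0.05). Sars2 is given above, and Yars2, the tyrosyl-tRNA synthetase, was at 865 ± 39.3 and 740 ± 121 (-0.24, SE 0.10, adjusted p = 0.338).

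Genes for transcription and replication of mitochondrial DNA, which supply the ribosomal RNAs and messages, had 5 of 12 tested members below 0 (median 0.06). At an unadjusted p under 0.05, 1 was lower and 1 higher, beside 5.95% and 6.8% of all tested genes. After length and GC correction 6 were below and 6 above 0 (median -0.003). Then 2 were lower and 0 higher at that level, beside 4.68% and 4.01%. Polrmt, the mitochondrial RNA polymerase, was at 991 ± 237 with IgG and 709 ± 216 with anti-CD22 (-0.50, SE 0.18, adjusted p = 0.289). Tfam, which packages and activates mitochondrial DNA, was at 775 ± 99.4 and 928 ± 105 (0.26, SE 0.10, adjusted p = 0.310), above the IgG median in all 7 anti-CD22 libraries. The polymerase and its activator thus lay on opposite sides of 0, neither past the adjusted threshold.

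Of the 8 tested regulators of nuclear genes for mitochondria, 1 was lower and 0 higher at an unadjusted p under 0.05. The shares over all tested genes were 5.95% lower and 6.8% higher. In direction, 3 of the 8 were below 0 (median 0.03). This turned after length and GC correction, with 5 of 8 below 0 and a median of -0.06, and without anti-CD22 replicates 1, 2 and 3, with 5 of 8 and -0.09. Myc, a growth regulator, was at 2282 ± 529 and 1441 ± 212 (-0.64, SE 0.14, limma adjusted p = 0.144), below the IgG median in all 7 anti-CD22 libraries. DESeq2 called it with an adjusted p of 0.0086 and edgeR gave 0.351, both on 13 libraries without anti-CD22 replicate 3. By limma it also passed without anti-CD22 replicate 7 (adjusted p = 0.0455) and with array weights (adjusted p = 0.0493). Over all alternatives the adjusted p ran from 0.0086 to 0.714, the highest without anti-CD22 replicates 1, 2 and 3. Gabpb1, a subunit of GABP, was at 1902 ± 142 and 2093 ± 143 (0.14, SE 0.07, adjusted p = 0.400).

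The cytosolic ribosomal proteins and the nuclear respiratory chain genes, also short, were set beside the members. Of 77 tested cytosolic ribosomal protein genes 76 were below 0 with a median of -0.17, and of 77 tested nuclear respiratory chain genes 72 were, with a median of -0.18. After length and GC correction these medians were -0.09 and -0.09. No gene of either set passed limma's adjusted threshold. Before that correction 18 and 20 were lower at an unadjusted p under 0.05, beside 5.95% of all genes and 12.1% of the short genes. After it 7 and 6 were, beside 4.68% of all genes and 2.49% of the short genes. Median transcript lengths were 943 and 918 bases in these sets, shorter than the 1316 of the members. The difference between the sets was not tested.

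Reads in named genes numbered from 20221836 to 38101421 over the 13 libraries whose recovered reads were used, and sums of normalized counts ran from 27357939 to 29197481 over all 14. All 10 microglial markers were expressed, with a sum between 1.67e+06 and 1.98e+06 normalized counts with IgG and between 1.77e+06 and 1.89e+06 with anti-CD22. The 5 neutrophil markers in the table summed to between 3.34 and 40365 with IgG and between 0 and 7595 with anti-CD22, and the 7 markers of border-associated macrophages to between 102 and 1684 and between 262 and 2403. Of 7 lymphocyte markers, 3 were at 0 in every library, and the sum stayed at 55.8 or less. Sums of the 6 astrocyte markers were 5927 to 8617 and 6657 to 8537, of the 6 oligodendrocyte markers 5451 to 6710 and 4949 to 5660, of the 6 neuronal markers 25.6 to 95.1 and 21.3 to 92.9, and of the 6 endothelial and pericyte markers, 2 of them at 0 throughout, 655 to 1216 and 884 to 1253. No marker passed the limma threshold, with 1 microglial and 1 oligodendrocyte marker at an unadjusted p under 0.05, and the part of these cells in the members' values was not tested.

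Exons of 32 members overlap another gene, and the kit does not mark strand, so reads in the shared bases cannot be assigned to one gene with certainty. Mrpl46 and Mrps11, 1 member of each subunit, overlap each other by 173 bases on opposite strands, with log2 fold changes of -0.12 and -0.24. Mrpl53 shares 88.0% of its exon bases with Gm42688. None of the 5 Mrp pseudogenes in the GENCODE annotation has a row of its own in the table.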

How the data were processed

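RNA-seq of sorted microglia was compared between 7 IgG and 7 anti-CD22 libraries, grouped by their titles. Per the submitters' processing notes, the tools were bcl2fastq, STAR on mm10, SummarizedExperiment for counting and DESeq2, on paired reads of 100 bases. The sources used here give neither versions nor the annotation. The authors deposited normalized counts, a signal obtained by dividing the counts of each library by 1 factor. Low values were whole multiples of 1 step in each library (100% whole within 0.1), and the reads recovered from it were used for 13 libraries. Anti-CD22 replicate 3, whose step was near 1 (1.01), was left out of these by choice. It was among the libraries with the lowest member means. Of 24421 entries, 27 with names turned into dates (at most 0.149% of a library) were left out.

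Genes with a mean of at least 10 normalized counts (11646) were tested with limma 3.58.1 in R 4.3.3 on log2(normalized count + 1), with a mean-variance trend, two-sided, Benjamini-Hochberg adjustment over all genes and a threshold of 0.05. A fold change is on that log2 scale. The scripts were tested on simulated data. Alternatives, 30 in all, included edgeR 4.0.16 and DESeq2 1.42.0 on recovered reads, other scalings, filters and pseudocounts, each library left out, and removal of the length and GC trend (natural splines, 4 degrees of freedom each, in each library; 99.5% of tested genes had a length). Length, GC content and gene coordinates came from the longest coding transcript in GENCODE vM21 (GRCm38), and promoters from RefSeq (GRCm38.p6). The labels give no batch.

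Members and gene lists were chosen with earlier results of these data known. Named were, by subunit, the 4 lower and 2 higher genes with the smallest p, the 2 highest and the 1 lowest per kilobase and 11 genes of known role, and the 2 smallest p of each pathway list. Among the 13 libraries with recovered reads in use, no 2 of a group were alike within counting noise (lowest chi-square per gene 18.1). Anti-CD22 replicate 3 was not compared in this way. The labels do not say that replicate numbers pair the samples, and the main fit did not pair them.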

Additional observations from a re-analysis of the deposited data

Results flagged for a closer look

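Among 54 sets of 7 values looked at (each named gene in each group, and the subunit means), 8 held 1 library set apart from the other 6, where chance gives about 1 in 20. The gap to the nearest library exceeded 0.568 of the range of the group in each.

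IgG replicate 7 stood apart for 3 genes: it was the lowest for Mrpl39, at 565 normalized counts with the next at 663, and the highest for Mrpl42, at 1009 with the next at 878, and for Mrps18c, at 514 with the next at 385. Mrpl14 had a low IgG replicate 5, at 213 with the next at 270, and a high anti-CD22 replicate 6, at 293 with the next at 224. Mrpl45 was at 1134 in IgG replicate 1 with the next at 809, Mrpl50 at 1259 in anti-CD22 replicate 1 with the next at 1002, and Mrps36 at 261 in anti-CD22 replicate 7 with the next at 157. The causes were not tested.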

How the results depend on the processing

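No member passed the adjusted threshold under any of the 30 alternatives, and the median of each subunit stayed below 0 in all of them: from -0.1500 to -0.0916 for the large subunit members (Mrpl) and from -0.1349 to -0.0937 for the small subunit members (Mrps) when 1 library was left out, and nearest to 0 with the length and GC trend removed for the large subunit (-0.0436) and without anti-CD22 replicates 1, 2 and 3 for the small (-0.0257). Over all genes, the count past the threshold, 1 by limma, was 0 without the mean-variance trend, with the length and GC trend removed, without anti-CD22 replicates 1, 2 and 3 and by edgeR, 8 with array weights, 40 by DESeq2, and between 0 and 43 with 1 library left out, 43 when anti-CD22 replicate 7 was dropped, 2 when replicate 2 or 5 of that group was, and 0 without IgG replicate 2, 3, 4, 5 or 7 or anti-CD22 replicate 1, 3 or 6.

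With a replicate block the count was 2, also with the length and GC trend removed. Same-numbered libraries showed only weak correlations of their deviations (from -0.145 to 0.160, above 0.1 in 2 of 7 pairs, and 2 of 7 best with their own number). The labels name no pairing, and correlations over all genes cannot settle whether same-numbered samples were handled together. The replicate block left the subunit medians at -0.1144 and -0.1122.

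Of all 77 members, 9 changed direction with the length and GC trend removed and 19 without anti-CD22 replicates 1, 2 and 3, among the latter 7 that had been more than 0.1 from 0. The named members that turned were these: with the length and GC trend removed, with or without the block, Mrpl32 was at -0.0295, Mrpl43 at 0.0101 and Mrps15 at 0.0620; without anti-CD22 replicates 1, 2 and 3, Mrpl42 was at 0.0143, Mrpl43 at 0.0663, Mrps15 at 0.0741 and Mrps18c at 0.0256. With 1 library left out, Mrpl45 ran from -0.0807 to 0.0698, the highest without IgG replicate 1, and Mrps18c from -0.167 to 0.0113, the highest without IgG replicate 7. The cause was not tested. With 7 libraries a group and standard errors from 0.0705 to 0.201, differences of the size of the subunit medians were not detectable in single genes.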
